A study of Mus musculus with 29 samples.

Results

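The genes described here are 9 mouse genes of liver and endoderm, Alb, Afp, Ttr, Apoa1, Tff1, Hnf4a, Foxa2, Foxa3 and Sox17, chosen by name from 21938 protein-coding genes as loci where the transcription factor FOXA1 could be looked for. Each was examined over its gene body and 50 kb on either side, a stretch called its window, in 28 lists of ChIP-seq peaks. All lists came from NIH-3T3, an established mouse fibroblast line carrying the rtTA3G transactivator, in which a factor with 3 HA tags at its C-terminus was expressed from a lentiviral transgene after overnight induction with 500 ng/ml doxycycline. At least 10000000 cells per line were fixed with 1% formaldehyde, and an anti-HA antibody was used for all constructs. The 24 constructs comprised 21 wild-type factors, the FOXA1 mutants FOXA1_RR-HA and FOXA1_SW-HA, and OCT4-HA in cells that also expressed SOX2 fused to YPet. FOXA1-HA, BHLHB8-HA, OCT4-HA and SOX2-HA had 2 lists each and the other 20 constructs had 1 list each. Both mutants are described by the study as interacting less with DNA outside specific sites while keeping the sequence preference of FOXA1. Each line was a stable line made with its own transgene, so line and construct cannot be told apart, and FOXA1 was placed in a fibroblast and not in a liver cell. Peak positions hold no expression values, so the fibroblast label was not checked against marker genes.

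FOXA1 is a forkhead protein and the founding example of a pioneer factor, one that can bind its sequence in closed chromatin. Together with its relatives FOXA2 and FOXA3 it acts in the formation of endoderm and liver, and the distal enhancer of the albumin gene is the locus where this action was first worked out. The 9 genes fall into secreted liver proteins (Alb, Afp, Ttr and Apoa1), a secreted peptide of the gut lining (Tff1) and transcription factors of liver and endoderm (Hnf4a, Foxa2, Foxa3 and Sox17).

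FOXA1-HA replicate 1 had 2 peaks in the 9 windows, both at Hnf4a, and the other 8 genes had no FOXA1-HA peak. FOXA1-HA replicate 2, FOXA1_RR-HA and FOXA1_SW-HA had no peak at any of the 9 genes. MAX-HA had 2 peaks, both at Foxa3. No gene was without a peak of any list (0 of 9, against 7.26% of all protein-coding genes). BHLHB8-HA replicate 2, the longest list, had a peak at all 9, and only Tff1 and Foxa2 had peaks of no other list.

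The FOXA1-HA and MAX-HA peaks are shown because they are the only peaks of these constructs at the 9 genes, and all but the first were chosen after their values were seen. Each line holds the central 200 bases of a peak on the plus strand of GRCm38 (mm10), 5′ to 3′, with matches to the forkhead sequence (TATTTAC or TGTTTAC, both strands) in capitals. The first FOXA1-HA window, chr2:163473251-163473450, held 1 match, written GTAAATA on this strand, beside a run of repeated TAAA units. The second, chr2:163494159-163494358, held none. Of the MAX-HA windows, chr7:19025562-19025761 held 1 match and chr7:19027988-19028187 none, and neither held CACGTG, the E-box to which MAX binds.
FOXA1-HA replicate 1, Hnf4a, 33.5 kb upstream: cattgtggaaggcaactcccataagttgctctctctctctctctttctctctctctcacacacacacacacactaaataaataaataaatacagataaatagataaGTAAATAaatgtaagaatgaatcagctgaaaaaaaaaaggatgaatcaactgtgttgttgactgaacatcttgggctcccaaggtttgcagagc
FOXA1-HA replicate 1, Hnf4a, 12.6 kb upstream: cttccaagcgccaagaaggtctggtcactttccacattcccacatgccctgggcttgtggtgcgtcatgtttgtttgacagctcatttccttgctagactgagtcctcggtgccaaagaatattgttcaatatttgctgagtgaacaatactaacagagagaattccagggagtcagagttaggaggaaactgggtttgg
MAX-HA, Foxa3, 2.12 kb upstream: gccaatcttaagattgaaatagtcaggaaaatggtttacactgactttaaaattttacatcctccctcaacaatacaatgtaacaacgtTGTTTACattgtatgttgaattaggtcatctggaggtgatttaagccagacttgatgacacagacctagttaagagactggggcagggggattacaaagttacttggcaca
MAX-HA, Foxa3, 4.55 kb upstream: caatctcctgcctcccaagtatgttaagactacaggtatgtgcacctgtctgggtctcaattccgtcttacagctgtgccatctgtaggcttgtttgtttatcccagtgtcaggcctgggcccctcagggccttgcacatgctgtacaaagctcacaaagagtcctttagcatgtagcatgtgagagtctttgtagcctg

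A pair of further windows is shown for other constructs, likewise chosen after their values were seen. The CDX2-HA peak upstream of Alb (chr5:90416568-90416767, plus strand, matches to the CDX sequence TTTATTG or TTTATGG on either strand in capitals) also held 1 forkhead sequence and 1 AP-1 sequence (TGACTCA or TGAGTCA). The SOX2-HA replicate 1 peak upstream of Foxa3 (chr7:19028082-19028281, plus strand, matches to the SOX sequence ACAATG or ACAAAG on either strand in capitals) lies in the site with the most constructs among the 9 genes, and held 3 SOX sequences and 1 AP-1 sequence.
CDX2-HA, Alb, 44.2 kb upstream: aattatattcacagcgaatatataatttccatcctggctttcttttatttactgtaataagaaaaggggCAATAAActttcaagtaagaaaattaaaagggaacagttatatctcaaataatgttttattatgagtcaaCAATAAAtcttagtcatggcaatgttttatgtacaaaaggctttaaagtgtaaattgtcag
SOX2-HA replicate 1, Foxa3, 4.64 kb upstream: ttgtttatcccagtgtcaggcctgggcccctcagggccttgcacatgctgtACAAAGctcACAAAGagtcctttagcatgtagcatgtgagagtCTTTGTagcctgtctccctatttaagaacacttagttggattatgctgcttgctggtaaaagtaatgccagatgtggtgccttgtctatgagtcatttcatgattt

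The lists differed in length by far more than the genes did, between 52 peaks (the second OCT4-HA list) and 61991 (the second BHLHB8-HA list), and the files give no read numbers, so the depth behind each list is unknown. A missing peak in a short list therefore means only that none was called. FOXA1-HA replicate 1 held 6033 peaks, replicate 2 1099, FOXA1_RR-HA 151 and FOXA1_SW-HA 147. Of the replicate 2 peaks, 853 (77.6%) overlapped a replicate 1 peak, whereas 854 replicate 1 peaks (14.2%) overlapped replicate 2. The MAX-HA list, with 3836 peaks, stood apart from its label in its sequences: 41.8% of its peaks held a forkhead sequence and 2.92% held CACGTG, whereas the forkhead sequence was in 37.2% and 33.1% of the peaks of FOXA1-HA replicates 1 and 2. It also overlapped FOXA1-HA at 2056 of its peaks (53.6%) for replicate 1 and 664 (17.3%) for replicate 2, and 60.4% of FOXA1-HA replicate 2 peaks overlapped MAX-HA. The MAX-HA values below carry this limit, and its source was not tested. In the mutant lists the forkhead sequence was in 17.2% of FOXA1_RR-HA peaks and 3.4% of FOXA1_SW-HA peaks, against 6.99% of the peaks of all lists.

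Whether FOXA1-HA was found at the 9 genes more often than at other genes was read from the share of all protein-coding genes with a peak in the same kind of window, without a test. A peak of FOXA1-HA replicate 1 lay in the window of 1 of the 9 genes (11.1%) and of 27.5% of all protein-coding genes. Replicate 2 had 0 of 9 against 6.66%, FOXA1_RR-HA 0 of 9 against 0.921% and FOXA1_SW-HA 0 of 9 against 0.884%. A peak of either FOXA1-HA list was near 28.2% of all genes and peaks of both lists near 6.00%, again with 1 and 0 of the 9. MAX-HA had 1 of 9 against 23.0%. By length alone, the 949.698 kb covered by the windows would hold 2.164 peaks of FOXA1-HA replicate 1, against the 2 seen, and 0.3942 of replicate 2, 0.05417 of FOXA1_RR-HA and 0.05273 of FOXA1_SW-HA, against 0 seen in each. At these list lengths a peak of either mutant would hardly fall in the windows, so the 0 in the mutant lists does not set them apart from the wild type. With 2 wild-type and 2 mutant lists, an exact two-sided permutation test cannot give a p-value below 0.333, so none was made.

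Lists of 4579 to 6075 peaks, a length near the 6033 of FOXA1-HA replicate 1, had peaks at 0 to 2 of the 9 genes. EBF1-HA, a somewhat longer list of 7669 peaks, was at 3. SIX6-HA, with 6075 peaks, had peaks at 2 of the 9 genes (27.8% of all genes), SOX2-HA replicate 2 at 1 (25.6%), OCT4-HA with SOX2-YPet at 2 that share a single peak (15.9%), SOX15-HA at 1 (22.0%) and RHOX11-HA at 0 (34.3%). RHOX11-HA was the longest list with no peak at the 9 genes, with 4579 peaks. HLF-HA, with 2635 peaks the shortest list that had one, was at 1 gene (15.6%).

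Among the 9 lists of more than 10000 peaks, all had a peak at several of the 9 genes. BHLHB8-HA was at 5 genes in replicate 1 (77.2% of all genes) and 9 in replicate 2 (84.4%). CDX2-HA was at 5 (56.4%), SOX2-HA replicate 1 at 5 (57.3%), DUXBL-HA at 4 (64.2%), TEAD1-HA at 4 (68.8%) and ZFP319-HA at 4 (59.4%). DLX1-HA and DLX6-HA were at the same 3 genes, Apoa1, Hnf4a and Foxa3 (60.5% and 53.1%). EBF1-HA, a shorter list of 7669 peaks, was at Ttr, Apoa1 and Hnf4a (38.8%). No peak at the 9 genes was called for TOX3-HA (10.1% of all genes), BRACHYURY-HA (3.92%), NANOG-HA (1.82%), OCT4-HA replicates 1 and 2 (0.725% and 0.351%), PRR3-HA (0.451%) and THAP4-HA (0.447%). Across the 28 lists, the share of the 9 genes with a peak was above that of all genes in 2 and below it in 26. The 2 were BHLHB8-HA replicate 2 and OCT4-HA with SOX2-YPet, the latter through a single peak counted at 2 genes. The 26 included the 11 lists with no peak at the 9 genes. Apart from RHOX11-HA, those 11 were near at most 10.1% of all genes, so 0 of 9 says little. CDX2-HA (55.6% against 56.4%) and SOX2-HA replicate 1 (55.6% against 57.3%) were nearly equal. By length there was no shortfall in the pooled peaks of the 28 lists: the windows were 0.0359% of the known genome and held 0.039% of all peaks. Single lists differed. Among those of more than 10000 peaks, the ratio of peaks seen to peaks expected by length ran from 0.5565 (SOX2-HA replicate 1) to 2.475 (ZFP319-HA). The pooled value is set against the whole genome and not against gene windows, so it does not bear on the shares of genes above. The windows of the 9 genes, with a median of 109.0 kb, were somewhat shorter than the 117.4 kb median of all genes.

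**Figure D1:**
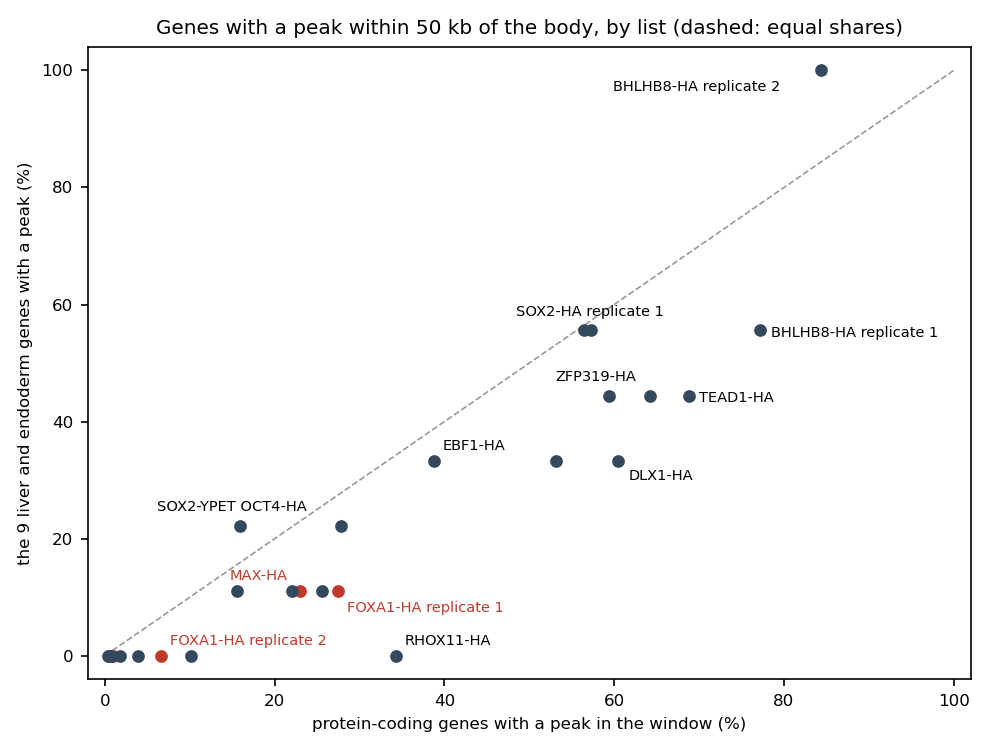
Each point is 1 of the 28 peak lists, with the percentage of all 21938 protein-coding genes that had a peak in the window on the x axis and the percentage of the 9 liver and endoderm genes on the y axis (red: FOXA1-HA, its mutants and MAX-HA). FOXA1-HA replicate 1 lies at 27.5% and 11.1%, below the dashed line of equal shares, as do most lists.

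In all, 119 peaks of 17 lists and 15 constructs lay in the 9 windows, 0.039% of the 304922 peaks, in 73 sites after touching peaks were merged. Of these sites, 57 (78.1%) had 1 construct, against 76.3% of the 168506 merged sites of the genome, and none had 10 or more. BHLHB8-HA gave 50 of the 119 peaks (42%), and 35.7% of all peaks. No peak lay within 1 kb of the start of any of the 9 genes, 10 lay within 5 kb, all of them at Foxa3, and 20 lay within 1 kb of the start of some other protein-coding gene. Since Alb and Afp are neighbours and share 4 peaks, the peaks make 123 pairs of gene and peak, of which 35 had the gene's own start as the nearest one and 7 lay in its body.

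**Figure D2:**
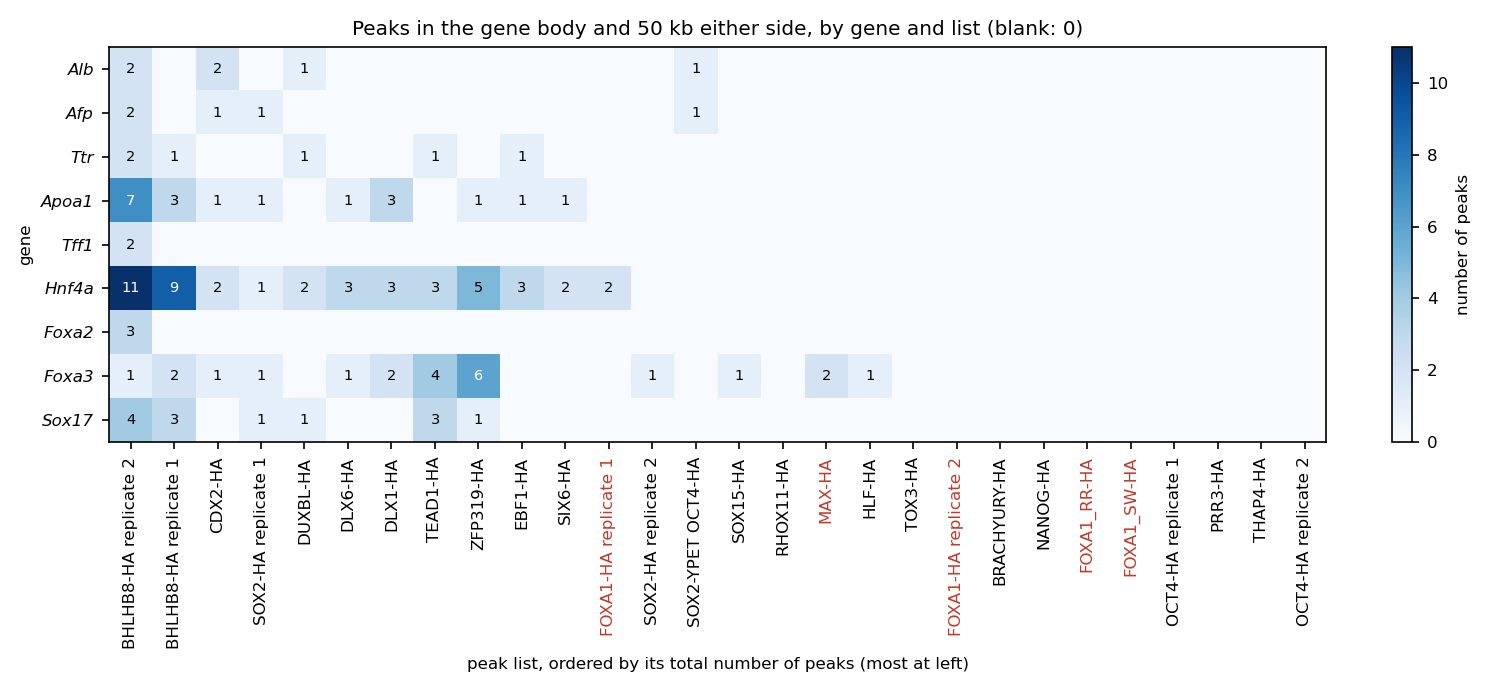
Number of peaks in the window of each gene (rows) in each of the 28 lists (columns, from most to fewest peaks in the list, with FOXA1-HA, its mutants and MAX-HA in red). Hnf4a and Foxa3 had peaks in 12 lists each and Tff1 and Foxa2 in 1, and the right of the plot, where the short lists stand, is blank.

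Alb encodes serum albumin, the main protein that the liver secretes into blood, and lies at chr5:90460897-90476602 on the plus strand. Its window held 6 peaks of 4 lists, none in the gene body. Upstream, between genes, lay a CDX2-HA peak at 44.2 kb (chr5:90416528-90416806), whose sequence is printed above, and a DUXBL-HA peak at 36.8 kb (chr5:90424000-90424249), the nearest to the start. The other 4 peaks lay downstream, in or beyond Afp. The nearest FOXA1-HA peak, in replicate 1, was 142.5 kb from the start, and 45.9% of all genes had a FOXA1-HA peak as near. In replicate 2 the nearest was at 822.3 kb.

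Afp encodes alpha-fetoprotein, the albumin relative made by fetal liver and yolk sac, at chr5:90490737-90508907 on the plus strand. Of the 5 peaks in its window 2 lay in the gene, an OCT4-HA with SOX2-YPet peak in an intron 8.84 kb from the start (chr5:90499383-90499779) and a BHLHB8-HA replicate 2 peak on a non-coding part of an exon at 17 kb (chr5:90507537-90507892). The first was the only peak of this construct at the 9 genes, and no SOX2-HA or OCT4-HA list had a peak at that site. Beyond the gene lay a CDX2-HA peak at 21.6 kb, a BHLHB8-HA replicate 2 peak at 25.1 kb and a SOX2-HA replicate 1 peak at 64.2 kb, which held 1 SOX, 1 AP-1 and 1 forkhead sequence. The nearest FOXA1-HA peak was 112.7 kb from the start, outside the window, and was the same peak as for Alb.

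Ttr encodes transthyretin, the thyroxine and retinol carrier of plasma, at chr18:20665280-20674321 on the plus strand. All 6 peaks in its window were over 30 kb from the start and none was in the gene. A TEAD1-HA peak lay 31.4 kb upstream in an intron of the noncoding gene Gm16090, and 5 peaks lay downstream in introns of B4galt6, an enzyme of lactosylceramide synthesis. Among these, both BHLHB8-HA lists and EBF1-HA shared 1 site 46 kb from the start (chr18:20711038-20711450), in which each peak held 1 AP-1 sequence. The nearest FOXA1-HA peak was 609.6 kb away, and 81.2% of genes had one as near.

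Apoa1 encodes apolipoprotein A-I, the main protein of high-density lipoprotein, at chr9:46228580-46230466 on the plus strand. It had the most peaks among the secreted proteins, 19 of 9 lists in 9 sites, and none in its body. Upstream, in introns of the kinase gene Sik3, a site about 40 kb away (chr9:46188214-46189361) had peaks of BHLHB8-HA (both lists), DLX1-HA, DLX6-HA and SOX2-HA replicate 1. A site next to it (chr9:46184550-46185467) had BHLHB8-HA replicate 2, CDX2-HA and DLX1-HA. The nearest peak to the start was of BHLHB8-HA replicate 2, 9.02 kb upstream on a coding exon of Sik3. The remaining sites lay downstream among the apolipoprotein genes Apoa4 and Apoa5 and at Zpr1. BHLHB8-HA replicate 2 peaks lay on coding exons of Apoa4, at 14.4 kb, and Apoa5, at 41.7 kb, with 2 CAGCTG E-boxes each. Between the neighbouring genes, BHLHB8-HA (both lists), DLX1-HA and EBF1-HA shared a site near 29 kb (chr9:46257051-46258136). ZFP319-HA had a peak at 18.5 kb, and Zpr1 had peaks of both BHLHB8-HA lists at its start and of SIX6-HA on an exon. FOXA1-HA had no peak nearer than 2.93 Mb, and 96.8% of genes had one as near.

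Tff1 encodes trefoil factor 1, a secreted peptide of the stomach lining whose human counterpart is a well-known FOXA1 and estrogen receptor target in breast cancer cells. The gene lies at chr17:31161395-31165277 on the minus strand, beside Tff2 and Tff3. Both peaks in its window were of BHLHB8-HA replicate 2 and absent from replicate 1: 1 lay 16.6 kb upstream in an intron of Tmprss3 (chr17:31181797-31182031) and 1 lay 34 kb downstream, 1.59 kb from the start of Tff3 (chr17:31130862-31131607). Neither held a CAGCTG E-box. The nearest FOXA1-HA peak was 140.7 kb away, and 45.5% of genes had one as near.

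Hnf4a encodes a nuclear receptor that drives much of the gene programme of hepatocytes, and is alone among the 9 genes in having FOXA1-HA peaks. It lies at chr2:163506808-163572910 on the plus strand, and its window, 166.1 kb long, was the longest of the 9 and held the most peaks, 46 of 12 lists in 25 sites. The upstream FOXA1-HA replicate 1 peak (chr2:163473228-163473472, 245 bp) lay between genes, 33.5 kb from the Hnf4a start and 0.721 kb upstream of the start of Fitm2, a protein of lipid droplet formation, which was thus much the nearer gene. It shared its site with a ZFP319-HA peak and no other list. In its central window 66.5% of the bases, the forkhead match included, are in lower case in the reference, which marks repeats, and 5.25% of the replicate 1 peaks have 50% or more of the window in lower case.

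The other FOXA1-HA replicate 1 peak (chr2:163494128-163494388, 261 bp) lay 12.6 kb upstream of Hnf4a, in an intron of R3hdml and on an exon of the antisense RNA gene Hnf4aos. It was nearer to the start of R3hdml, at 1.94 kb. Its site also had EBF1-HA and both BHLHB8-HA lists, so that 4 lists met there (chr2:163493921-163494388). It held 2 overlapping matches to a looser forkhead sequence (the first 6 bases of either form, or TGTTTG). All the other printed windows held such matches too: 6 in the other FOXA1-HA window, 1 and 2 in the MAX-HA windows, 1 in the CDX2-HA and 2 in the SOX2-HA window. Both FOXA1-HA peaks were narrower than the list's median width of 267 bp, and 40.5% and 47.9% of the replicate 1 peaks were no wider. Replicate 2 had neither peak, and its nearest was 864.8 kb from the start. Of all genes, 6.91% had a FOXA1-HA peak as near to their start as Hnf4a. For the rest of the 9 genes this share ran from 38.7% (Foxa3) to 96.8% (Apoa1). The smallest of 9 such shares is low by selection, so it does not set Hnf4a apart, and no test was made.

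RefSeq gives Hnf4a a second start within the gene body, the promoter used in adult liver. The nearest peak to it, of ZFP319-HA, was 6.41 kb away in an intron (chr2:163553428-163553695), and the nearest FOXA1-HA peak was 52.9 kb upstream of it. The other 3 peaks in the body were in introns, of ZFP319-HA at 8.64 kb, BHLHB8-HA replicate 2 at 9.18 kb and DUXBL-HA at 10.9 kb from the first start. Of all 46 peaks in the window, 10 lay within 1 kb of another gene's start, the upstream FOXA1-HA peak among them. At Fitm2, BHLHB8-HA (both lists), DLX1-HA and DLX6-HA shared an intron site (chr2:163471170-163471825). BHLHB8-HA (both lists) and TEAD1-HA shared a site on a coding exon at the start, and SIX6-HA and SOX2-HA replicate 1 a site on a non-coding exon part. Downstream, BHLHB8-HA (both lists), DLX1-HA and TEAD1-HA met at the start of Ttpal, a tocopherol transfer protein relative (chr2:163601804-163602938). BHLHB8-HA replicate 1 also met CDX2-HA and DLX6-HA at chr2:163580110-163580737. Both BHLHB8-HA lists met DLX6-HA and SIX6-HA at chr2:163595740-163596898, and upstream they met DLX1-HA at chr2:163464192-163465058. The remaining 12 sites had a single construct. Upstream of the first start these were DUXBL-HA at 49.1 kb, ZFP319-HA at 32.3 kb, EBF1-HA at 26.3 kb and BHLHB8-HA at 25 kb (replicate 2) and 15.3 kb (replicate 1). Downstream they were CDX2-HA at 67.8 kb with 2 CDX sequences, TEAD1-HA at 70.6 kb with 1 forkhead sequence, BHLHB8-HA at 76.8 kb and 82.9 kb (replicate 2) and near 84 kb (both lists), EBF1-HA at 84.4 kb and ZFP319-HA at 94 kb.

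Foxa2 encodes a close relative of FOXA1 needed to form the foregut endoderm, and lies at chr2:148042877-148046969 on the minus strand. Its only peaks were 3 of BHLHB8-HA replicate 2, with none in replicate 1: 12.4 kb and 53.7 kb downstream of the start in introns of the noncoding gene 9030622O22Rik, and 45 kb upstream between genes (chr2:148091777-148092153). The last of these held 1 forkhead sequence and 1 CAGCTG E-box. FOXA1-HA replicate 1 came no nearer than 150.9 kb, and replicate 2 was at 233.3 kb, its smallest distance among the 9 genes.

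Foxa3 encodes the third liver relative of FOXA1, at chr7:19013284-19023538 on the minus strand, and had 23 peaks of 12 lists in 12 sites, none in the gene body. The nearest peak to its start, and the nearest of any list at the 9 genes, was of TEAD1-HA at 1.05 kb (chr7:19024381-19024800), in an intron of the adjoining gene Sympk, 0.213 kb from that gene's start. The MAX-HA peak at 2.12 kb (chr7:19025518-19025805), in an intron of Sympk, was alone at its site. The second MAX-HA peak, at 4.55 kb (chr7:19027964-19028210), lay in the site with the most constructs among the 9 genes (chr7:19027633-19028359, 727 bp). BHLHB8-HA replicate 1, DLX1-HA, DLX6-HA, SOX15-HA, both SOX2-HA lists and ZFP319-HA had peaks there too, 8 lists of 7 constructs in all. SOX15-HA and both SOX2-HA peaks each held 3 SOX sequences, and BHLHB8-HA held 1 CAGCTG E-box. FOXA1-HA had no peak at this site and came no nearer to Foxa3 than 108.1 kb. The 8 peaks lay 3.48 kb to 3.83 kb from the start of Sympk and 4.32 kb to 4.67 kb from that of Foxa3, so they were nearer to Sympk.

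Downstream of Foxa3, at the start of Irf2bp1 about 19 kb away, HLF-HA, TEAD1-HA and ZFP319-HA shared a site (chr7:19003965-19004453), and BHLHB8-HA (both lists) and DLX1-HA another (chr7:19002924-19003443). A CDX2-HA peak at 21.6 kb held 1 CDX sequence. ZFP319-HA alone had 4 further sites between 32.6 kb and 55.5 kb, and TEAD1-HA had 1 at 44.8 kb and 1 at 42.2 kb upstream, on a coding exon of Rsph6a.

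Sox17 encodes a factor needed for definitive endoderm, at chr1:4490931-4497354 on the minus strand. No other protein-coding gene starts in its window, and the Sox17 start was the nearest to all 13 peaks, of 6 lists in 11 sites. A TEAD1-HA peak of 581 bp lay on a coding exon, 5.06 kb from the start (chr1:4492000-4492580), the only peak on a coding exon of any of the 9 genes. BHLHB8-HA had 7 peaks in 5 sites, of which the sites at 18.6 kb and 27.3 kb downstream were in both lists. ZFP319-HA lay 16.6 kb, DUXBL-HA 37.6 kb and SOX2-HA replicate 1 42.2 kb upstream, and TEAD1-HA also 28.2 kb and 35.9 kb downstream. Every site at Sox17 had a single construct. The nearest FOXA1-HA peak was 377.2 kb away, and 71.5% of genes had one as near.

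**Figure D3:**
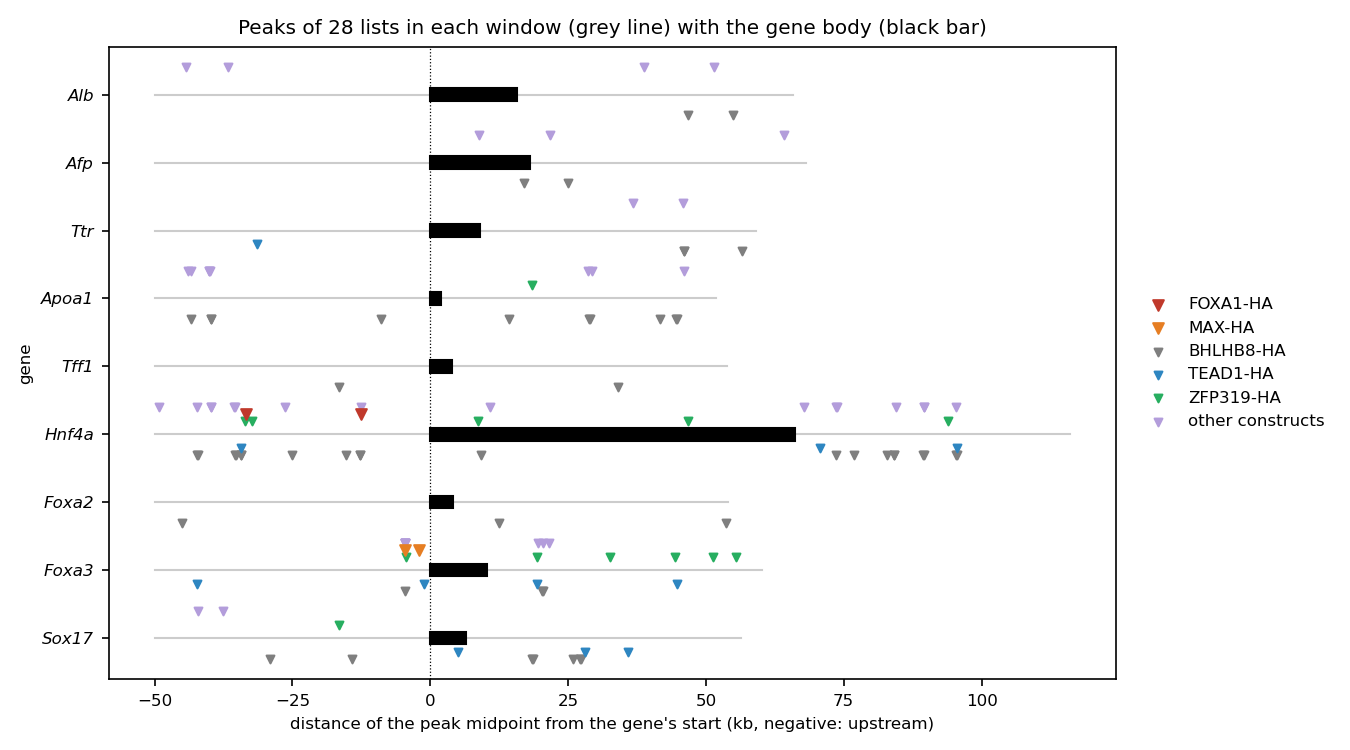
Position of every peak in the 9 windows (triangles, coloured by construct and set off vertically so that constructs can be told apart) relative to the start of each gene, in kb with upstream negative. The 2 FOXA1-HA peaks stand upstream of Hnf4a at 33.5 kb and 12.6 kb, and the 2 MAX-HA peaks upstream of Foxa3 at 2.12 kb and 4.55 kb.

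Over the 9 genes the median distance from the start to the nearest FOXA1-HA peak of either list was 142.5 kb, against 165.7 kb over all protein-coding genes. In replicate 2 the medians were 822.3 kb and 951.5 kb, and for MAX-HA 214.1 kb and 226.0 kb. For FOXA1_RR-HA they were 9.81 Mb and 9.67 Mb and for FOXA1_SW-HA 18.4 Mb and 13.6 Mb. The nearest mutant peak to any of the 9 genes was a FOXA1_RR-HA peak 1.09 Mb upstream of Hnf4a, and that of FOXA1_SW-HA was 5.05 Mb from Sox17. For FOXA1-HA the distances ran from 12.6 kb at Hnf4a to 2.93 Mb at Apoa1. Alb and Afp share their nearest FOXA1-HA peak and are not separate evidence.

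**Figure D4:**
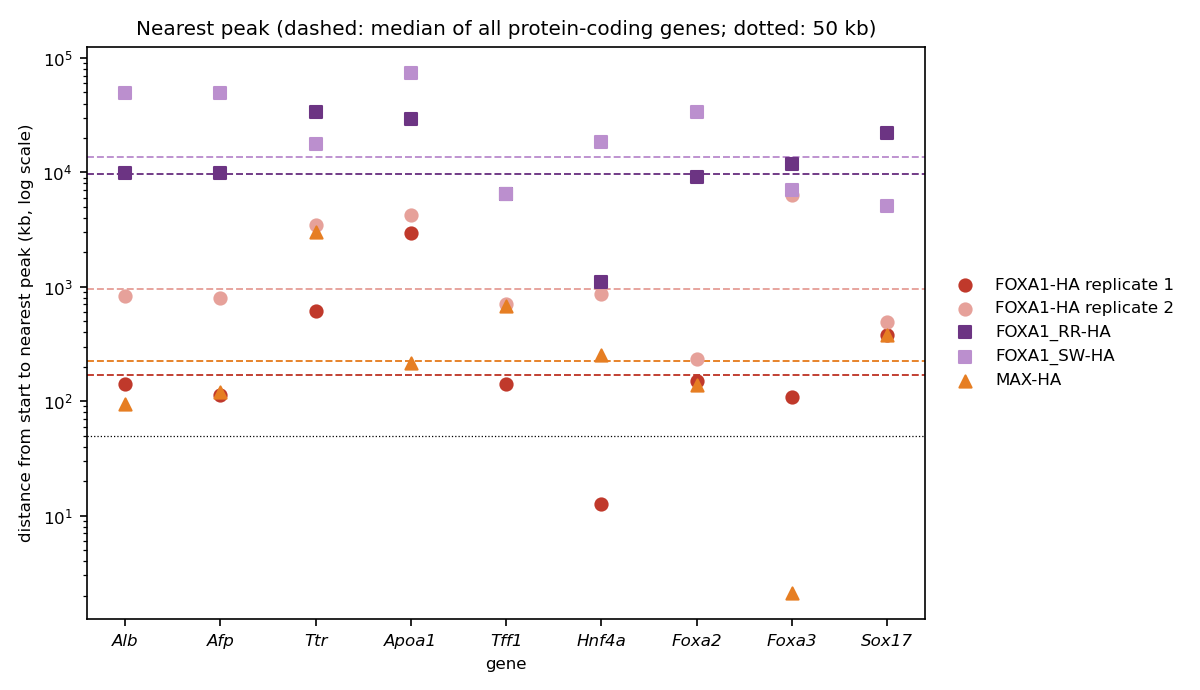
Distance from the start of each gene to the nearest peak of FOXA1-HA replicates 1 and 2, FOXA1_RR-HA, FOXA1_SW-HA and MAX-HA, in kb on a log scale, with the median of all protein-coding genes as a dashed line for each list. Hnf4a for FOXA1-HA replicate 1 (12.6 kb) and Foxa3 for MAX-HA (2.12 kb) are the only points under 50 kb, and the nearest mutant point is at 1094.3 kb.

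Forkhead sequences were present near the 9 genes whether or not FOXA1-HA had a peak. The windows held 283 of them, 0.298 per kb against 0.37 per kb over the genome, from 17 at Tff1 to 53 at Hnf4a, and 1 was in the central window of a FOXA1-HA peak. Genome-wide, 2880 of 979552 were. Alb had 34 and Afp 44 without a FOXA1-HA peak. In the RefSeq promoters (300 bases each, GRCm38) 6 of the 9 genes had entries, Alb, Afp, Apoa1, Hnf4a, Foxa2 and Foxa3, and none of their promoters held a forkhead sequence, which 6.54% of 32851 promoters did. Ttr, Tff1 and Sox17 were not matched.

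Of the 119 peaks at the 9 genes, 10 (8.4%) held a forkhead sequence, against 6.99% of all peaks, and 18 (15.1%) held an AP-1 sequence, against 15.5%. A sequence of the construct's own kind was in 32 of 84 (38.1%), against 36.7%. These shares were near those of all peaks. By construct, CAGCTG was in 8 of 18 BHLHB8-HA replicate 1 peaks and 12 of 32 replicate 2 peaks (37.8% and 35.1% of all peaks of these lists), and the CDX sequence in 5 of 6 CDX2-HA peaks (44.9%). The TEAD sequence CATTCC was in 1 of 11 TEAD1-HA peaks (4.51%) and the EBF sequence in 0 of 5 EBF1-HA peaks (13.5%).

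How far a peak at these genes recurred could be seen in the constructs with 2 lists. For BHLHB8-HA, 14 of 18 replicate 1 peaks overlapped a replicate 2 peak, against 53.3% of all replicate 1 peaks of this construct. For SOX2-HA, 1 of 5 replicate 1 peaks recurred, namely that upstream of Foxa3, against 21.0% of all. For FOXA1-HA, 0 of 2 did, against 14.2% of all, so with 2 peaks the lack of overlap sets neither apart from the rest of the list. At Alb, Afp, Tff1 and Foxa2 no peak was found in both lists of any construct.

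Among 41 further liver and endoderm genes, 9 (22.0%) had a FOXA1-HA peak in the window, against 28.2% of all genes, and all 41 had a peak of some list. Both FOXA1-HA lists had a peak at Apoa2, an apolipoprotein of high-density lipoprotein, 40.5 kb upstream in an intron of Pcp4l1, where MAX-HA also had one, and at Tdo2, a liver enzyme of tryptophan breakdown, 58.5 kb from the start and nearer to Ctso. Replicate 1 alone was at 6 genes (Apoe, G6pc, Trf, Krt8, Krt18 and Cdh1), and replicate 2 alone at 1 (Pdx1). These names were chosen after their values were seen. Nearest to a start was the peak 4.24 kb upstream of Trf, the plasma iron carrier transferrin. The neighbours Krt8 and Krt18 share their peaks. MAX-HA was at 4 of the 41 genes (9.76%, against 23.0% of all genes), Hhex, Eomes, Apoa2 and Cdh1. FOXA1_RR-HA had none, and FOXA1_SW-HA had 1, on a coding exon of Foxa1. The transgene also carries this sequence, so that reads of the gene and of the transgene cannot be told apart. The FOXA1-HA and FOXA1_RR-HA lines carry a Foxa1 transgene too, and none of their lists had a peak at Foxa1. Depth behind these lists is unknown, and the source of the FOXA1_SW-HA peak was not tested. The 41 genes share windows with the 9 genes, with Apoa4 and Apoc3 next to Apoa1 and Tff2 and Tff3 next to Tff1.

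The set of lists with a peak was compared between genes by the Jaccard index, the lists in common divided by the lists of either, for the 3 genes with peaks in at least 8 lists and over genes on other chromosomes. Hnf4a (12 lists) had the same lists as 20 other genes, of which the first in alphabetical order were Becn1, Coro1c and Emilin2. Apoa1 (9 lists) had the same lists as Dhrs3 and Pla2g5, followed by Ankra2 at 0.9 with 18 tied. Foxa3 (12 lists) was nearest to Gm10271, Myoz1 and Senp6 at 0.923. Long lists contribute most to this measure, since they have peaks at most genes.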

How the data were processed

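Anti-HA ChIP-seq peaks of 28 NIH-3T3 samples were used, grouped by the labels, and the 1 input sample was not used here. The authors aligned paired-end reads to mm10, kept unique alignments, removed duplicates and kept chromosomes 1 to 19, X and Y. They called peaks in each sample by itself and dropped any that touched an input peak or the ENCODE blacklist. The submitters' processing notes name STAR 2.5.3a, Picard and MACS2 2.1.1.20160309. The deposited files give chromosome, start and end in bp, in 3 columns, without score, height or read number, so depth is unknown and counts of peaks were not adjusted for it.

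Gene bodies came from GENCODE vM21 and sequence from GRCm38. A peak belonged to a gene if it touched, by 1 bp or more, the gene body extended by 50 kb. Distances run from the peak midpoint to the gene's 5′ end. Touching peaks of all lists were merged into sites. Sequences were counted on both strands in the central 200 bp, also where they overlapped. The number expected by length is the list's peaks times the windows' share of the known genome. Python 3.11.15, NumPy 2.4.6, SciPy 1.17.1 and Matplotlib 3.10.9 were used. The counting steps were checked on simulated data. No test was made. The genes, the further gene list and the alternatives were chosen with earlier results of these data known. The text names all 9 genes, further genes with peaks of both FOXA1-HA lists, genes nearest to a described peak, and the 3 most alike genes for those with peaks in at least 8 lists, and by that rule prints the FOXA1-HA peak with a forkhead sequence. The other FOXA1-HA window, the MAX-HA, CDX2-HA and SOX2-HA windows and other names were chosen after their values were seen. Alternatives were flanks of 10 kb and 100 kb, the gene body alone, peak midpoints, peaks of at least 300 bp, removal of sites of 10 or more constructs, a looser forkhead sequence and leaving out each FOXA1-HA list.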

Additional observations from a re-analysis of the deposited data

How the results depend on the processing

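Of 60 alternative values for 9 counts, 39 stayed within 1.5 times and 21 moved. With a flank of 10 kb the genes with a FOXA1-HA peak went from 1 to 0, the FOXA1-HA replicate 1 peaks from 2 to 0, the FOXA1-HA peaks with a forkhead sequence from 1 to 0, and the further genes with a FOXA1-HA peak from 9 to 3, while 3 genes (Alb, Ttr and Tff1) had no peak of any list. With 100 kb, FOXA1-HA was at 2 genes (Hnf4a and Afp), MAX-HA at 2 (Foxa3 and Alb), 2 FOXA1-HA peaks held a forkhead sequence, and 15 further genes had a peak. In the gene body alone FOXA1-HA and MAX-HA were at 0 genes, with 0 replicate 1 peaks and 0 further genes, and 6 genes had no peak of any list (Alb, Ttr, Apoa1, Tff1, Foxa2 and Foxa3). Among peaks of at least 300 bp, FOXA1-HA and MAX-HA were at 0 genes, with 0 replicate 1 peaks. The looser forkhead sequence was in 2 FOXA1-HA peaks. Leaving out 1 FOXA1-HA list gave 0 to 1 genes, 0 to 1 peaks with a forkhead sequence and 3 to 8 further genes, the lower value each time without replicate 1. FOXA1-HA replicate 2, FOXA1_RR-HA and FOXA1_SW-HA had 0 at the 9 genes in every setting run. No paired analysis was possible because no result comes from a test.

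The FOXA1-HA result thus rests on 2 peaks of replicate 1, neither called in replicate 2, which 14.2% of all replicate 1 peaks overlap. Depth is unknown, so a gene without a peak in a short list was not shown to be unbound, and overexpression in single fibroblast lines limits what the positions say of FOXA1 in liver.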

Other observations

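The peaks at the 9 genes, like those of the whole genome, differed between constructs in how far they lay in sequence in lower case in the reference. Lower case marks repeats, and the difference was noticed after the values were seen. At least 50% of the central 200 bp was in lower case for 8 of 13 ZFP319-HA peaks and 4 of 11 TEAD1-HA peaks, and for 2 of the 95 peaks of all other lists, 1 of them FOXA1-HA and 1 BHLHB8-HA replicate 2. Over the whole genome the share was 61.0% for ZFP319-HA, 34.7% for TEAD1-HA and 8.68% for the other lists together. The ZFP319-HA and TEAD1-HA counts were thus near the shares of these lists anywhere and are not particular to the 9 genes. ZFP319-HA had 13 peaks at the 9 genes and TEAD1-HA 11, where length alone gives 5.253 and 5.366, but each was at 4 of the 9 genes (44.4%), below its 59.4% and 68.8% of all genes. The ZFP319-HA peaks in lower case lay at Apoa1, Hnf4a and Foxa3, and the TEAD1-HA ones at Ttr, Hnf4a, Foxa3 and Sox17.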
